A study of Mus musculus with 6 samples.

Results

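The cytosolic ribosome of mouse B lymphoma cells was followed through the genes of its protein subunits. A gene was taken as a member when its platform symbol began with Rpl or Rps and a number, or was Rplp0, Rplp1, Rplp2 or Rpsa; the S6 kinase genes, Rps27l and symbols marked as pseudogenes were left out, 8 genes in all. This gave 47 genes of 18784 with 1 symbol. Of these, 38 are core subunits, 21 of the large and 17 of the small subunit, 8 are duplicated-gene paralogs, and 1, Rps19bp1, encodes a protein that binds RPS19. The paralog Rps4l matched the symbol rule but is a transcribed pseudogene in the RefSeq annotation. These 38 are only a portion of the ribosome's proteins: many core subunits, Rpl5, Rpl10, Rpl11 and Rps27a among them, were not analysed here, and every count below is of the measured genes.

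RNA was measured on 3 Affymetrix arrays of lymphoma cells transduced with the Dhx9.1241 shRNA, directed at the DExH-box helicase DHX9, and on 3 arrays of cells that received Rluc.713, a shRNA against Renilla luciferase as control. Both groups share the genotype Arf-/-Eu-myc/Bcl-2: they lack Arf, a tumour suppressor upstream of p53, express MYC from the Eu-myc transgene, which is active in B cells, and carry Bcl-2, which blocks apoptosis. The cells were kept on irradiated Arf-/- embryonic fibroblasts, and no drug is named for any array. How many tumours or cultures lie behind the 3 arrays of a group is not given in the labels, so p-values describe array-to-array spread that may be technical alone.

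Each ribosome is built from a large subunit, which forms peptide bonds, and a small subunit, which reads the message. Their proteins are made in matched amounts, and the mRNAs of vertebrate ribosomal proteins start with a C and a run of pyrimidines, the 5′ terminal oligopyrimidine (TOP), through which mTOR signalling controls their translation as a group. MYC, which these cells carry as a transgene, is a known driver of ribosome production.

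The start-site windows below are shown because this pyrimidine run is a feature of the members that the symbol rule did not use. Each has 30 bases of the transcribed strand from RefSeq (GRCm38.p6), 20 before the annotated start and 10 from it. Capitals mark the longest unbroken stretch of C or T counted from a base no more than 5 before or after the start, as far as the window reaches; a run that opens further upstream, as in Rpl14 and Rplp0, is counted only from 5 bases before it. The first 7 are the core members with a C at the annotated start followed by at least 4 C or T. Rplp0 and the paralog Rpl3l follow as members without it.
Rpl14 (chr9:120571497-120571526, plus strand): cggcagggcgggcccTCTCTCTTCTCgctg
Rplp2 (chr7:141447631-141447660, plus strand): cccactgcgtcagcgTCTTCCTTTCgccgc
Rps6 (chr4:86857358-86857387, minus strand): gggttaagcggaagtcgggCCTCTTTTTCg
Rps10 (chr17:27635235-27635264, minus strand): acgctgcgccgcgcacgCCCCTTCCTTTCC
Rps15a (chr7:118116138-118116167, minus strand): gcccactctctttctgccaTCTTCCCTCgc
Rps18 (chr17:33955656-33955685, minus strand): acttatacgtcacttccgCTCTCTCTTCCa
Rps21 (chr2:180257359-180257388, plus strand): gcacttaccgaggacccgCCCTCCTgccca
Rplp0 (chr5:115559447-115559476, plus strand): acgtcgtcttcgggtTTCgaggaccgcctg
Rpl3l (chr17:24727806-24727835, plus strand): cagctgagtgttctagCTCTgtcatttgac

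Promoter sequence was matched for 36 of the 47 members, 28 of them core. The motif searched was a C followed by 4 or more C or T, on the transcribed strand only, since it is a property of the RNA. It stood exactly at an annotated start in 7 of 28 core members (25%), against 410 of 15060 measured genes with a promoter (2.72%) and 2.51% of all promoters in the table. It lay within 5 bases of a start in 15 of 28 core members (53.6%), against 22.1% of measured genes. Stretches of 8 or more pyrimidines counted in this way were found in 12 core members (42.9%), against 6.82% of measured genes. Among 67 mitochondrial ribosomal protein genes, the motif stood exactly at the start in 0 and within 5 bases in 17. These counts describe letters near annotated starts, which can be a few bases away from the starts used in these cells. The median log2 difference between the hairpins was -0.02 in the 15 core members with the motif within 5 bases of a start, and 0.0015 in the 13 without it. Differences ran from -0.13 to 0.09 in the first set and from -0.15 to 0.03 in the second. Rpl29, Rpl17, Rpl21 and Rps20, whose differences lay outside both ranges, had no matched promoter and are in neither set.

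**Figure D1:**
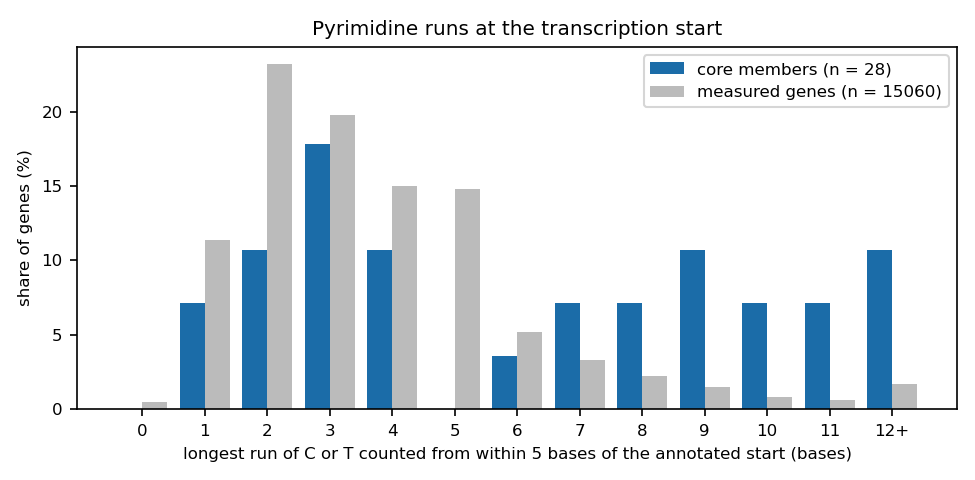
Share of genes (vertical axis, percent) by the longest run of C or T counted from within 5 bases of the annotated start (horizontal axis, bases; the last class holds 12 or more), for 28 core ribosomal protein genes (blue) and 15060 measured genes (grey). Of the 28 core members, 12 lie in the classes from 8 bases upwards (42.9%, against 6.82% of measured genes), and the others share the shorter classes with most measured genes.

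The deposited values are on the log2 scale, after robust multi-array averaging (RMA). RMA sets the probe signals of all arrays to a shared distribution before summarizing them, so a change common to all genes would not be seen. The medians of the 6 arrays after summarizing still ran from 8.43 to 8.51. Dhx9, the target of the shRNA, fell. It stood at 11.46, 11.43 and 11.38 on the Dhx9.1241 arrays, against 12.41, 12.48 and 12.36 on the Rluc.713 arrays, a log2 difference of -0.99 (SE 0.053, limma adjusted p = 0.000129). Sample titles name Dhx29 instead, which had a log2 difference of 0.04 (adjusted p = 0.857). B cell markers lay at a median of 12.4 (8 of 9 measured, from 7.36 for Vpreb1 to 13.8), fibroblast markers of the feeder type at 5.76 to 9.15 (9 genes) and T and NK cell markers at 6.20 to 8.29 (6 genes). Of 6 myeloid markers measured, 4 were lower in Dhx9.1241, Lyz2 by a log2 difference of -1.31, while Itgam had one of 0.21 (adjusted p = 0.152) and Adgre1 one of -0.0095. The log2 of the summed level of the 6 lay between 11.98 and 12.08 in Dhx9.1241, against 12.47 to 12.55 in Rluc.713. Without Lyz2 it reached at most 11.83 in Dhx9.1241 and 12.11 in Rluc.713, again with no overlap between the groups, and its part in the results below was not tested. In bulk RNA, fewer cells of a type and less RNA per cell cannot be told apart. On the second principal component Rluc.713 replicate 1 lay at 16.7, and the other 5 arrays between -5.61 and 3.62, so results are also given without it where that changes them.

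Among the measured ribosomal protein genes, Rpl29 alone passed the threshold, and most differences were small. Of the 47 members, 1 was higher, 0 were lower and 46 did not pass an adjusted p under 0.05 (limma over all genes, Benjamini-Hochberg), a share of 2.13%. Over all genes 3.14% passed in either direction, 2.07% higher and 1.07% lower. The share of members called was therefore near that of all genes. Without adjustment, at p under 0.05, there were 2 higher and 4 lower members, against 8.50% and 5.63% of all genes. The median log2 difference was -0.02 over the members, which ranged from -0.30 to 0.27, and 0.0049 over all genes. The median absolute difference was 0.046 in the members and 0.054 over all genes.

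The intervals put limits on most members, as they did on most genes. The 95% interval of the log2 difference lay wholly within 0.5 on either side of 0, that is within 1.41-fold, for 46 of 47 members (97.9%), against 97.1% of all genes. The exception was Rpl17, whose interval ran from -0.51 to -0.10. The interval lay within 0.25 on either side, or 1.19-fold, for 34 members (72.3%), against 69.3% of all genes. Half-widths had a median of 0.13 and reached 0.28 in Rpl14.

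**Figure D2:**
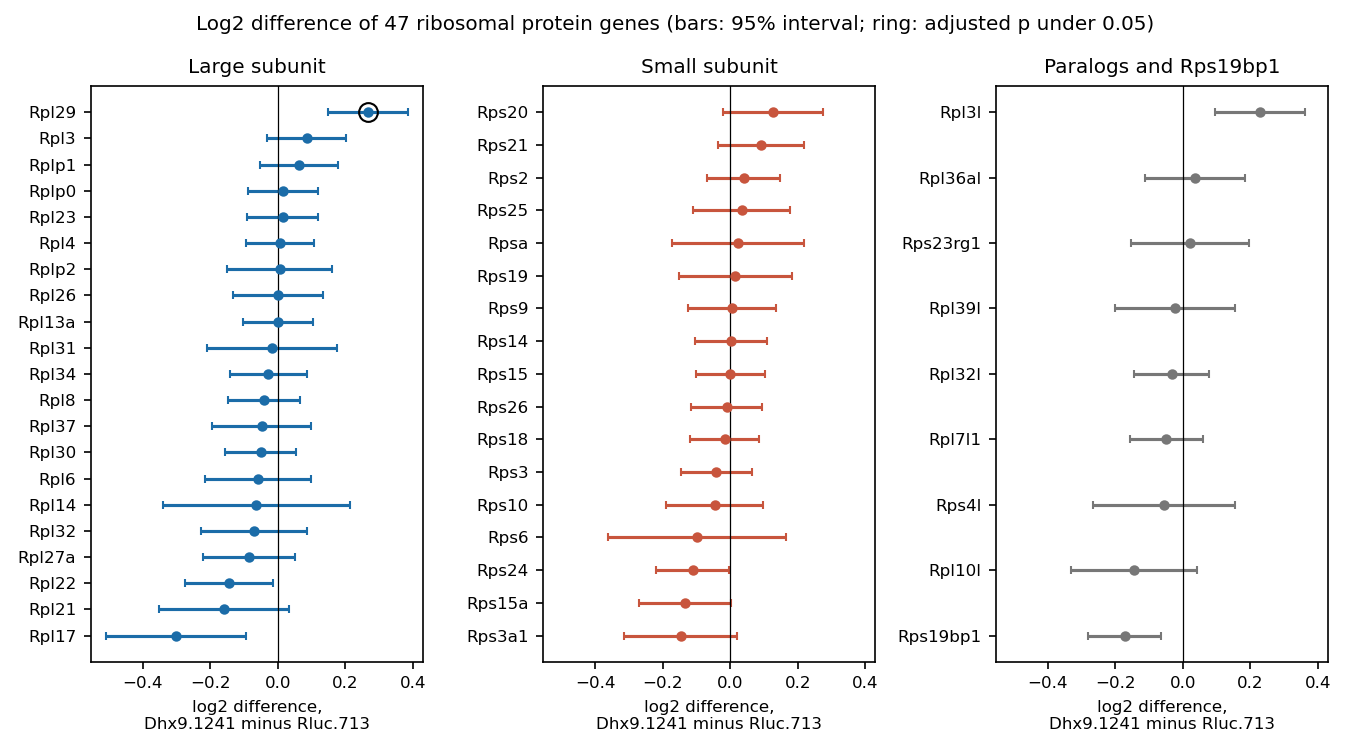
Log2 difference, Dhx9.1241 minus Rluc.713, of each of the 47 members (points) with its 95% interval (bars), for the large subunit, the small subunit, and the paralogs with Rps19bp1. A ring marks Rpl29, the 1 member past the adjusted threshold, at 0.27; most other intervals cross 0.

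The member that rose was Rpl29, a small basic protein of the large subunit that was also described as a heparin-binding protein and whose loss in mice gives viable but small animals. Its level was 13.21, 13.15 and 13.20 on the Dhx9.1241 arrays, against 12.97, 12.94 and 12.86 on the Rluc.713 arrays. All 3 Dhx9.1241 arrays lay above all 3 Rluc.713 arrays. The log2 difference of 0.27 (SE 0.052, adjusted p = 0.0328) corresponds to 1.20-fold, with a 95% interval on the log2 scale of 0.15 to 0.38. The difference lay between 0.23 and 0.29 in the 14 alternative fits. As the groups did not overlap, leaving out an array could not change its sign, and some alternatives leave the estimate itself unchanged. It no longer passed when any of 5 arrays was left out (adjusted p = 0.15, 0.0911 and 0.136 without Dhx9.1241 replicates 1, 2 and 3, and 0.104 and 0.119 without Rluc.713 replicates 2 and 3), but did when Rluc.713 replicate 1 was (0.0204). With each array centred on its median the adjusted p was 0.0523, and Rpl29 also did not pass with the replicate numbers as a block.

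Among the core genes of the large subunit, Rpl3, whose product reaches towards the peptide-bond centre, had the second most positive difference. Rpl3 stood at 14.09, 14.19 and 14.11 on the Dhx9.1241 arrays, against 14.05, 14.07 and 14.01 on the Rluc.713 arrays. The groups did not overlap, but the log2 difference of 0.08 did not pass and its 95% interval, -0.03 to 0.20, included 0 (adjusted p = 0.571). The largest negative difference of all members was that of Rpl17, a protein near the exit of the peptide tunnel. Rpl17 stood at 10.52, 10.38 and 10.36 on the Dhx9.1241 arrays, against 10.54, 10.73 and 10.90 on the Rluc.713 arrays. The groups were separated only by the narrow gap between Dhx9.1241 replicate 1 and Rluc.713 replicate 1. Its log2 difference was -0.30 (SE 0.090, adjusted p = 0.147), and without Rluc.713 replicate 1 it was -0.39 (adjusted p = 0.0222).

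Rpl22, a large-subunit protein that the ribosome can do without in most cells but that developing T cells in mice need, stood at 10.52, 10.68 and 10.64 in Dhx9.1241, against 10.72, 10.76 and 10.80 in Rluc.713. The groups did not overlap, and the log2 difference of -0.15 did not pass (adjusted p = 0.278). Rpl21 averaged 8.97 ± 0.156 in Dhx9.1241 and 9.13 ± 0.086 in Rluc.713 (SD, n = 3 each), and here the groups overlapped, since Dhx9.1241 replicate 1 lay above Rluc.713 replicate 1 (log2 difference -0.16, adjusted p = 0.491).

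The stalk, the flexible arm of the large subunit that recruits elongation factors, is made of Rplp0, Rplp1 and Rplp2. Rplp0, its base, stood at 14.23, 14.21 and 14.22 in Dhx9.1241, against 14.19, 14.23 and 14.19 in Rluc.713. Rplp1 stood at 13.97, 14.05 and 13.98 in Dhx9.1241, against 13.98, 13.89 and 13.94 in Rluc.713. Rplp2 stood at 12.77, 12.83 and 12.59 in Dhx9.1241, against 12.69, 12.75 and 12.72 in Rluc.713. The groups overlapped for all 3 stalk genes. Their log2 differences were 0.02, 0.06 and 0.0054, with 95% intervals within -0.15 and 0.18. Rpl4, which lines the peptide tunnel, was among the tightest of all members, between 13.07 and 13.09 on all 6 arrays, with a log2 difference of 0.0066. Rpl13a, which in human myeloid cells also acts off the ribosome to silence inflammatory messages, lay between 14.01 and 14.07 on all 6 arrays.

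A further 7 core large-subunit genes had log2 differences between -0.09 and 0.01, each with an interval that included 0. Rpl23 and Rpl26, whose human proteins also act on the MDM2 and p53 pathway, had differences of 0.01 and 0.0015. Rpl23 averaged 13.72 ± 0.021 in Dhx9.1241 and 13.70 ± 0.028 in Rluc.713 (SD, n = 3 each). Rpl27a had the most negative of the 7, at 11.49, 11.44 and 11.38 in Dhx9.1241, against 11.62, 11.46 and 11.49 in Rluc.713. Its groups overlapped (log2 difference -0.09, adjusted p = 0.661). Rpl31, which lies by the tunnel exit, was at 9.54, 9.28 and 9.20 in Dhx9.1241, against 9.36, 9.38 and 9.34 in Rluc.713, and the Dhx9.1241 arrays lay on both sides of the Rluc.713 arrays. Rpl6, Rpl34 and Rpl37 had differences of -0.06, -0.03 and -0.05.

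None of the 17 core small-subunit genes passed in the limma fit, while 1 was lower and 0 higher by the unadjusted p. The lower gene was Rps24, one of the subunits mutated in human Diamond-Blackfan anaemia. Rps24 stood at 11.41, 11.46 and 11.48 in Dhx9.1241, against 11.53, 11.57 and 11.57 in Rluc.713, with no overlap and a log2 difference of -0.11 (adjusted p = 0.331). The largest negative difference of the subunit was that of Rps3a1, at 11.57, 11.37 and 11.44 in Dhx9.1241, against 11.55, 11.55 and 11.73 in Rluc.713. These groups overlapped (log2 difference -0.15, adjusted p = 0.448). Rps15a, whose start carries the pyrimidine run shown above, stood at 11.62, 11.69 and 11.82 in Dhx9.1241, against 11.83, 11.86 and 11.84 in Rluc.713. Dhx9.1241 replicate 3 came close to the Rluc.713 arrays, but the groups did not overlap. The log2 difference was -0.13 (adjusted p = 0.366).

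The largest positive differences of the small subunit were those of Rps20 and Rps21. Rps20 stood at 10.92, 11.06 and 11.08 in Dhx9.1241, against 10.94, 10.94 and 10.80 in Rluc.713. Rps21 stood at 10.33, 10.26 and 10.16 in Dhx9.1241, against 10.14, 10.18 and 10.16 in Rluc.713. The groups overlapped for both, and neither difference passed (0.13, adjusted p = 0.469, and 0.09, adjusted p = 0.588).

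Other small-subunit genes of known role showed no detectable difference. Rps6, the substrate of the S6 kinases, stood at 10.31, 9.92 and 9.96 in Dhx9.1241, against 10.01, 10.31 and 10.18 in Rluc.713. Both groups spread widely and overlapped, so its log2 difference of -0.10 has an interval from -0.36 to 0.16. Rps14, whose haploinsufficiency underlies the anaemia of a human myelodysplastic syndrome, lay between 12.24 and 12.31 on all 6 arrays, with a log2 difference of 0.0018. Rps19, the gene most often mutated in Diamond-Blackfan anaemia, averaged 12.56 ± 0.081 in Dhx9.1241 and 12.55 ± 0.121 in Rluc.713 (SD, n = 3 each). Rpsa, the ribosomal protein also known as the laminin receptor, averaged 9.29 ± 0.123 in Dhx9.1241 and 9.27 ± 0.136 in Rluc.713 (SD, n = 3 each).

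Rps26, which contacts the message near its exit from the small subunit, had a log2 difference of -0.01 (95% interval -0.12 to 0.09). A further 7 core small-subunit genes had differences between -0.05 and 0.04, each with an interval that included 0. Rps2 and Rps3, which sit where the message enters, had differences of 0.04 and -0.04. Rps3 stood at 13.19, 13.16 and 13.16 in Dhx9.1241, against 13.25, 13.21 and 13.19 in Rluc.713, so that the groups met near 13.19. Rps15 lies near the decoding site and had a difference of 0.0003, while Rps18 was one of the steadiest members, between 13.29 and 13.32 on all 6 arrays. Rps25, which is needed for translation from several viral internal ribosome entry sites, averaged 9.93 ± 0.063 in Dhx9.1241 and 9.89 ± 0.093 in Rluc.713 (SD, n = 3 each). Rps9 and Rps10 had differences of 0.0042 and -0.05.

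**Figure D3:**
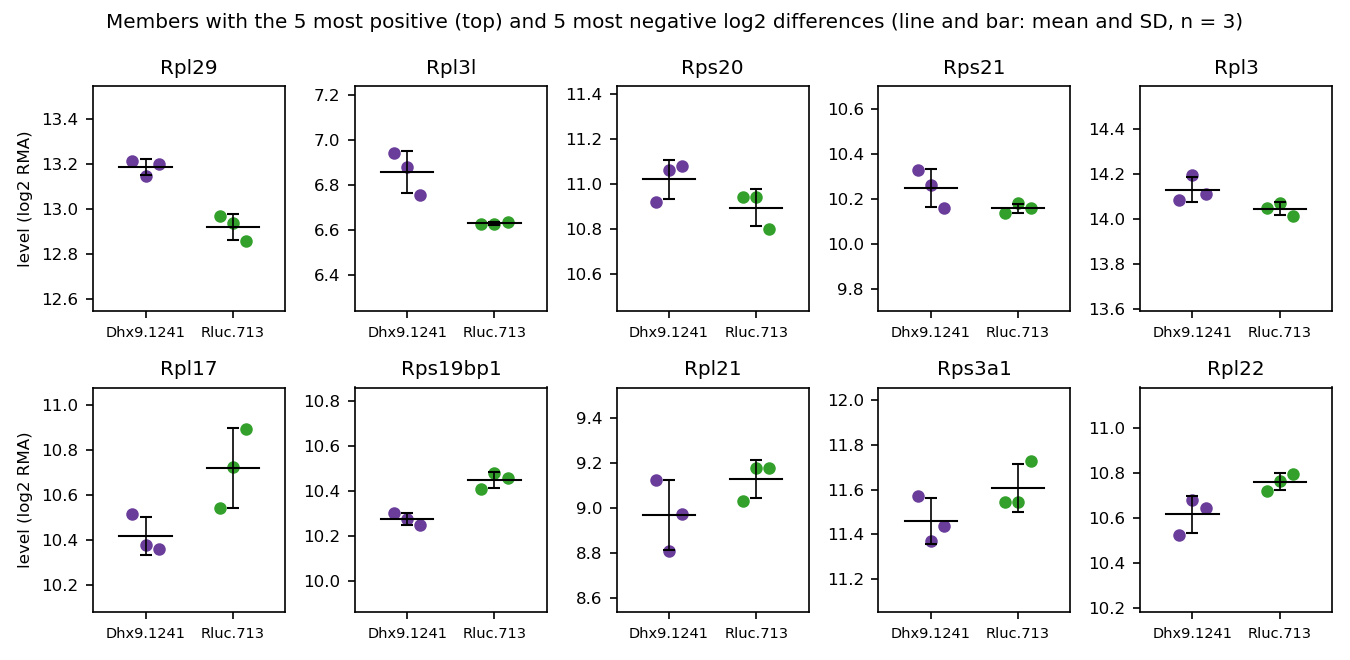
Level on the log2 RMA scale (vertical axis, every panel spanning 1 unit) on 3 Dhx9.1241 arrays (purple, left) and 3 Rluc.713 arrays (green, right) for the members with the 5 most positive and 5 most negative log2 differences; lines and bars are means and SDs. Rpl29 at 13.15 to 13.21 in Dhx9.1241 lies clear of 12.86 to 12.97 in Rluc.713, while the groups of Rps20, Rps21, Rpl21 and Rps3a1 overlap.

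In both subunits the differences centred near 0. The median log2 difference was -0.03 over the 21 core genes of the large subunit and 0.0003 over the 17 of the small subunit. In the large subunit 9 differences were positive and 12 negative, and in the small subunit 9 were positive and 8 negative. As a median deviation from each gene's mean over the 6 arrays, the large subunit lay at 0.0060, -0.036 and 0.012 on the Dhx9.1241 arrays, against -0.0021, 0.022 and -0.0012 on the Rluc.713 arrays. The small subunit lay at 0.011, -0.0063 and -0.025 on the Dhx9.1241 arrays, against -0.010, 0.016 and 0.0053 on the Rluc.713 arrays. The groups overlapped for both subunits. No test was made of the difference between the subunits, since their genes are not replicates.

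The paralogs are copies of ribosomal protein genes, several with narrow expression. Rpl3l, which replaces Rpl3 in heart and skeletal muscle, had the largest difference among them. Rpl3l stood at 6.94, 6.88 and 6.76 in Dhx9.1241, against 6.63, 6.63 and 6.64 in Rluc.713. All Dhx9.1241 arrays lay above all Rluc.713 arrays, yet the log2 difference of 0.23 (SE 0.058) did not pass (adjusted p = 0.0885). It sits low on the scale, in percentile 17.5 of all genes. Its parent gene Rpl3 had a log2 difference of 0.08, as given above.

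Rpl10l and Rpl39l are paralogs of male germ cells in mice. Rpl10l stood at 7.96, 7.87 and 8.20 in Dhx9.1241, against 8.16, 8.12 and 8.18 in Rluc.713, with overlap. Rpl39l stood at 4.93, 5.13 and 5.18 in Dhx9.1241, against 5.20, 5.10 and 5.02 in Rluc.713, near the bottom of the scale at percentile 2.97. Neither passed (adjusted p = 0.538 and 0.963). Rpl36al, a broadly expressed copy of Rpl36a, had a log2 difference of 0.03, and Rpl7l1, a factor of large-subunit assembly, one of -0.05. Rpl32l and its namesake Rpl32 had log2 differences of -0.03 and -0.07. Rps23rg1, a retrogene of Rps23, had one of 0.02, and Rps4l one of -0.06. None of the 8 paralogs passed in the limma fit; by the unadjusted p, Rpl3l was the 1 that was higher and 0 were lower.

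Rps19bp1 is not part of the ribosome; its product binds RPS19 and is known as an activator of the deacetylase SIRT1. Rps19bp1 stood at 10.30, 10.28 and 10.25 in Dhx9.1241, against 10.41, 10.48 and 10.46 in Rluc.713. The groups did not overlap and the arrays of each were close together. The log2 difference was -0.17 (SE 0.047, adjusted p = 0.115). It passed in 4 of 14 alternative fits, among them a repeated quantile normalization (adjusted p = 0.0353) and cyclic loess (0.0348), over a range of 0.028 to 0.336.

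Groups did not overlap for 10 of the 47 members, 3 higher and 7 lower in Dhx9.1241; over all genes this held for 20.1%, 11.6% higher and 8.51% lower. Besides those already given, these were Rpl30 and Rpl8, both lower by small amounts. Rpl30 stood at 13.81, 13.74 and 13.78 in Dhx9.1241, against 13.84, 13.82 and 13.82 in Rluc.713, a log2 difference of -0.05 (adjusted p = 0.766). Rpl8 stood at 12.95, 12.92 and 12.95 in Dhx9.1241, against 12.96, 13.03 and 12.96 in Rluc.713. In both the separation was narrower than the 95% interval of the difference.

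Signal level matters for how these genes can be read, since many sit at the top of the scale. The levels of different probe sets are given only as positions on this scale, since they also depend on the probes. Of the 47 members, 11 were in the top 1% of genes and 23 in the top 5%; 4, all of them paralogs, lay below the median gene. The brightest named gene on every array was Eef1a1, which encodes the elongation factor that brings charged tRNA to the ribosome. Eef1a1 stood at 14.57, 14.52 and 14.56 in Dhx9.1241, against 14.52, 14.55 and 14.54 in Rluc.713. The brightest member on every array was Rps26, at 14.23, 14.29 and 14.25 in Dhx9.1241, against 14.28, 14.26 and 14.27 in Rluc.713, that is 0.22 to 0.34 below Eef1a1. With Rps26, the genes Rplp0, Rpl3 and Rpl13a made up 4 members among 25 genes with a mean of 14 or above.

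The deposited values carry no flag for saturated probes, so saturation could not be read directly. The values show the spread and the differences at each level. Among genes with a mean of 13 or above, the median SD within groups was 0.025 in 15 members and 0.034 in 245 other genes. In that bin the median absolute log2 difference was 0.017 in the members and 0.039 in the other genes. Between 10 and 12 the median SD was 0.072 in 13 members and 0.058 in 4604 other genes, with median absolute differences of 0.11 and 0.068. At 13 or above, 2 of 245 other genes were called (0.816%), against 5.45% of other genes between 10 and 12. Differences were also small at the bottom of the scale, where other genes under 8 had a median absolute difference of 0.044 and 0.749% were called, although their median SD was 0.089. Rpl29 was the only member called in any bin. The largest absolute difference of any gene at 13 or above was 0.33, in Trp53i11. Whether saturation took part in the small differences of the bright members was not tested.

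**Figure D4:**
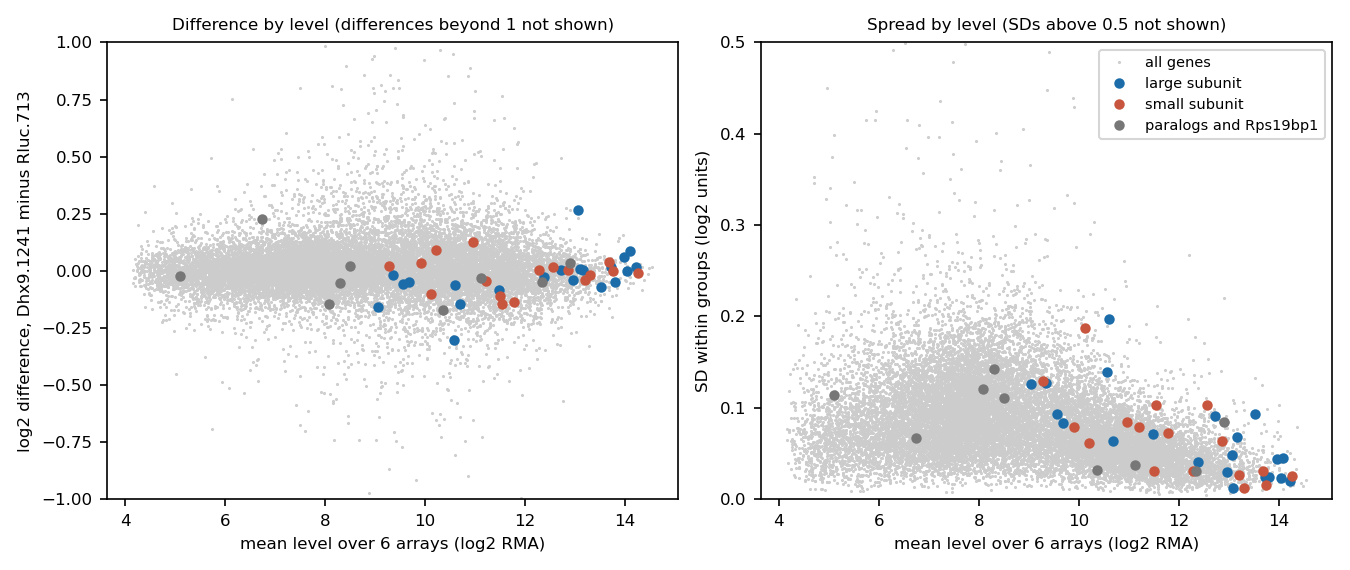
Left, log2 difference, Dhx9.1241 minus Rluc.713, and right, SD within groups in log2 units, against the mean level over the 6 arrays, for all genes (light grey), large-subunit (blue) and small-subunit (red) core members, and paralogs with Rps19bp1 (dark grey). The cloud of differences is narrow at both ends of the scale, and apart from Rpl29 at 0.27 the brightest members lie close to 0.

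When the core members were split at a mean level of 12, a division chosen after the values were seen, their medians lay apart. The 21 at 12 or above had a median log2 difference of 0.0018, with 14 positive and 7 negative. The 17 under 12 had a median of -0.06, with 4 positive and 13 negative. In level, these 17 ran from 9.05 to 11.8. Other genes had a median of 0.013 between 8 and 10 and of 0.0065 between 10 and 12. At brighter levels the median of other genes was -0.012 between 12 and 13 and -0.016 at 13 or above. Over all genes, with all levels pooled, 9860 differences were positive and 8924 negative. As a median deviation from the mean over the 6 arrays, the members under 12 lay at 0.019, -0.087 and -0.044 on the Dhx9.1241 arrays, against -0.015, 0.065 and 0.070 on the Rluc.713 arrays. Dhx9.1241 replicate 1 lay above Rluc.713 replicate 1, so the groups overlapped. The median of the members under 12 was negative in all 14 alternative fits, several of which leave it unchanged. It was -0.11 without Rluc.713 replicate 1, -0.03 without Rluc.713 replicate 3 and -0.03 without Dhx9.1241 replicate 2. All 14 fits reuse the same 6 arrays, so they add no separate support for the split. The median of the bright members turned to -0.02 with each array centred on its median and to -0.01 without Rluc.713 replicate 3.

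**Figure D5:**
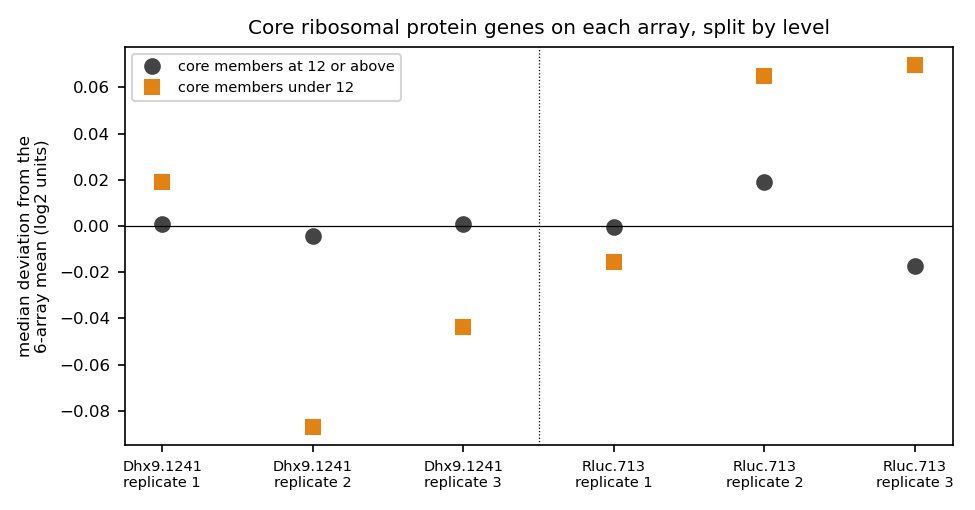
Median deviation from the 6-array mean, in log2 units, of 21 core members at a mean level of 12 or above (dark circles) and 17 under 12 (orange squares) on each array. The circles stay between -0.017 and 0.019, while the squares run from -0.087 on Dhx9.1241 replicate 2 to 0.070 on Rluc.713 replicate 3.

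Members also differed in how steady they were within a group. The widest SDs within groups were those of Rpl14 (0.197), Rps6 (0.187), Rps4l (0.142), Rpl17 (0.139) and Rpsa (0.129), all under a mean level of 11. Rpl14 stood at 10.79, 10.29 and 10.63 in Dhx9.1241, against 10.50, 10.67 and 10.73 in Rluc.713, with Dhx9.1241 replicate 2 as the lowest array. Within the Dhx9.1241 group, replicate 2 was the lowest of the 3 arrays in 21 of the 47 members, replicate 1 in 12 and replicate 3 in 14. Within the Rluc.713 group, replicate 1 was the lowest in 18, replicate 2 in 10 and replicate 3 in 19. The same count was not made over all genes, so it is not known whether this is particular to the members. Many ribosomal protein genes have processed pseudogenes of near-identical sequence, and whether the probe sets also read their transcripts was not tested.

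Other lists, mainly of the translation machinery, are given beside the 3.14% of all genes that passed in either direction. Of 24 other genes listed from general knowledge as having TOP messages, 20 were measured. Whether their annotated starts carry the motif was not examined separately. None of the 20 passed in the limma fit, with 1 higher and 2 lower by the unadjusted p. Their largest differences were those of Eef1d, a subunit of the exchange factor for EEF1A (-0.22, adjusted p = 0.068), and Gas5, a noncoding RNA that hosts small nucleolar RNAs (-0.18, adjusted p = 0.166). Eef1d stood at 10.74, 10.69 and 10.70 in Dhx9.1241, against 10.88, 10.91 and 11.01 in Rluc.713, without overlap, and passed when Rluc.713 replicate 1 was left out (adjusted p = 0.0352). The median of the list was 0.0094.

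None of 25 measured escorts and assembly factors of the subunits passed in the limma fit, and the unadjusted p gave 0 higher and 2 lower. Gtpbp4, a GTPase of large-subunit assembly, had the largest difference (-0.16, adjusted p = 0.182), followed by Bysl, a factor of small-subunit maturation (-0.14, adjusted p = 0.496). The median of this list was -0.05. Of 76 mitochondrial ribosomal protein genes, 1 was higher and 1 lower, or 2.63%, a share near that of all genes. Mrpl9 averaged 11.35 ± 0.073 in Dhx9.1241 and 10.83 ± 0.026 in Rluc.713 (SD, n = 3 each), a log2 difference of 0.52 (adjusted p = 0.00225), and Mrpl43 had one of -0.27 (adjusted p = 0.0427). Both encode proteins of the mitochondrial large subunit. Mrpl9 passed in all 14 alternative fits, while Mrpl43 did not pass when any of 5 arrays was left out (adjusted p = 0.144, 0.0895 and 0.158 without Dhx9.1241 replicates 1, 2 and 3, and 0.16 and 0.108 without Rluc.713 replicates 2 and 3). Mrpl43 also did not pass with the replicate block.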

How the data were processed

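Total RNA was measured on Affymetrix arrays, 3 per shRNA. The authors deposited 1 table of log2 values per probe set made by RMA, per the submitters' processing notes; which version, settings or probe-set definition they used is not given in the sources used here. RMA corrects background, normalizes by quantiles and summarizes the probes, so totals are largely equalized. Raw signals and saturation flags are absent, and the number of arrays limits the precision. Of 21212 probe sets, 18786 had 1 symbol in the platform table, 6 had several and 2420 had none. Where 2 probe sets shared a gene, the one with the higher mean was kept, which left 18784 genes. Dhx9.1241 minus Rluc.713 was fitted over all genes with limma 3.58.1 (lmFit, eBayes) in R 4.3.3, and a gene was called at a Benjamini-Hochberg adjusted p under 0.05. Intervals are 95% intervals of that fit, and the script was tested on simulated data. The simulated noise was independent between arrays and genes, so the effect of an outlying array was not tested.

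Members, gene lists and tests were chosen with earlier results of these data known. The text names called members, the 5 largest and smallest differences, levels and SDs, the paralogs, members of known role and, in other lists, up to 4 called genes or the 2 with the largest differences. The remaining members are given to account for all 47; Vpreb1, Trp53i11, Vim, Lyz2, Itgam and Adgre1 were named after their values were seen. Start-site sequences are RefSeq's (GRCm38.p6). Alternatives were a level filter, each probe set alone, other normalizations, another variance model, array weights, a replicate block and leaving out each array. Some ribosomal protein genes were not analysed here.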

Additional observations from a re-analysis of the deposited data

How the results depend on the processing

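Over 14 alternative fits the members gave 654 single-gene results, of which 639 stayed on the same side of the threshold. Rpl29 lost its call in 7, and 8 calls were gained, by Rpl17 in 3, Rps19bp1 in 4 and Rpl3l in 1. No call changed sign. Counting core members alone gave 1 higher and 0 lower. With genes below the median level filtered out, 1 member was lower (Rps19bp1), all genes gave 609 higher and 382 lower, 1 other TOP gene was lower (Eef1d) and 2 mitochondrial ribosomal protein genes were lower. A second quantile normalization gave 1 lower member, 353 lower genes and 1 lower TOP gene, and cyclic loess gave 1, 341 and 1. Centring every array at its median left 0 members higher. A variance trend with robust estimation gave 1 lower member (Rpl17), 673 higher and 466 lower genes, 1 higher (Vim) and 1 lower TOP gene, 1 lower assembly factor (Gtpbp4) and 2 lower mitochondrial genes. Array weights, which gave Rluc.713 replicate 1 a weight of 0.268, gave 2 higher and 2 lower members, 669 higher and 542 lower genes, 2 lower TOP genes and 3 lower mitochondrial genes. The median of the core members at 12 or above was 0.016 after quantile normalization, -0.018 with centring and 0.019 with cyclic loess. Same-numbered arrays correlated at -0.271, -0.339 and 0.239 in their deviations from group means, and the other pairs at -0.369 to 0.48. These values do not show a pairing by number, and with 3 arrays per group they cannot exclude it. With the replicate block 0 members were higher (Rpl29, adjusted p = 0.114), 172 genes were higher and 92 lower over all genes, and 0 mitochondrial genes were lower. Leaving out 1 array gave 0 to 1 higher and 0 to 1 lower members, 126 to 497 higher and 70 to 399 lower genes, 0 to 1 lower TOP genes and 0 to 2 lower mitochondrial genes. Of these, Rluc.713 replicate 1 was the array without which 497 and 399 genes were called. The large-subunit median ran between -0.046 and 0.0035 and the small-subunit median between -0.018 and -0.0042. The filter tests fewer genes; otherwise the cause was not tested.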
